A study of Saccharomyces cerevisiae with 37 samples.

Results

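The small ribosomal subunit assembly factors described here were 36 genes of budding yeast (Saccharomyces cerevisiae), taken from the 6464 genes of the count table by their systematic names. They were chosen by name as factors of the small-subunit processome and of 40S maturation. The rule used no values, but earlier results of these data were known when it was set. All 36 were found, and 35 had enough reads to be tested. By role they fall into the box C/D and U3 small nucleolar ribonucleoprotein (snoRNP) proteins, the UtpA and UtpB complexes, the Mpp10 complex, a set of enzymes, other processome factors, and factors of late 40S maturation.

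The small ribosomal subunit is assembled on the nascent ribosomal RNA in the nucleolus. UtpA and UtpB bind the 5′ end of the transcript, the U3 snoRNP and the Mpp10 complex join them, and the resulting processome folds and cleaves the RNA before late factors carry the pre-40S particle to the cytoplasm. In yeast the genes for these factors belong to the ribosome biogenesis regulon, whose RNA levels are known to fall together under many stresses and to return as cells adapt.

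The 37 libraries were 3′-end RNA sequencing (Lexogen QuantSeq) of haploid MATa yeast of the BY4741 background. The wild type (WT) is strain BMY1051, and the array strain, BMY3661, holds 25 copies of GFA1 behind the copper-responsive CUP1 promoter. GFA1 encodes the enzyme that starts hexosamine synthesis. Cultures grown overnight in YPD were washed, kept for about 2 h in minimal medium without copper, sampled at 0 min and, after copper sulfate was added, every 5 min up to 30 min, then at 45 min and at 60 min. The copper dose is given as 500 in uM in one note and in mM in another, which was not settled here. Each strain and time had 2 libraries, numbered 1 and 2, and WT 0 min had another, numbered 3. The numbers were read as cultures followed over time, from the growth note. Column names carry a second strain number for the array strain, and the labels do not say whether its replicates were separate isolates, so p-values measure the spread between these samples. All later samples had copper, and the effects of copper and of time in this medium cannot be told apart. These are bulk samples, in which fewer cells of a kind and less RNA per cell cannot be told apart.

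Gene counts ran from 305028 to 887971 per library, with a median of 577369, and the 36 genes together held 3665 to 10353 of them. GFA1 was between 32.8 and 343 counts per 1e6 reads in genes (CPM) in the WT libraries and between 1798 and 21392 in the array libraries. All 5 MATa markers were read in both strains, and the MATalpha markers held 11 counts (STE3) or 1 count (MF(ALPHA)1 and MF(ALPHA)2) over all libraries. One library stood apart from the rest: WT 0 min replicate 1 had the fewest gene counts, lay at -79.1 on the leading principal component (31.1% of the variance), and had 40S ribosomal protein genes at a median of -2.11 (log2) relative to their mean over all libraries. Counts of called genes and medians over the whole set against WT 0 min are therefore also given without it. So are called changes of single genes that it moved by over 1.5 times or out of the test. Some counts and medians of the other gene lists are given with all libraries only. Levels below are CPM on library sizes scaled by TMM, listed in the order replicate 1, 2 and, at WT 0 min, 3. They are 3′-end counts, so they compare libraries for a gene, not genes with each other.

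The promoters of 5 of the genes are shown because they span the patterns seen in the data: LTV1, ENP2 and SOF1 fell and returned in WT, whereas NOP1 and UTP22 were not lower at 20 min. Each window runs from 250 bases before to 49 bases after the A of the start codon, 300 bases in all, on the plus strand of build R64 (RefSeq assembly). Capitals mark the letters GATGAG (or CTCATC, the same site on the other strand), the core of the PAC motif, and AAAATTTT, the core of the RRPE motif, which reads alike on both strands. The letters of the 2 cores cannot overlap. Both motifs are known from promoters of yeast ribosome assembly genes.
LTV1, chrXI:176531-176830: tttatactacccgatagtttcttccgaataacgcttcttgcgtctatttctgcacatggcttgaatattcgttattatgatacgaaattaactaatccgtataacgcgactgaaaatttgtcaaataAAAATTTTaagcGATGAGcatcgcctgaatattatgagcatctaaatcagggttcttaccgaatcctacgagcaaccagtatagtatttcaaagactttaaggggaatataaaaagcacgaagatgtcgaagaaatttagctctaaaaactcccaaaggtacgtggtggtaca
ENP2, chrVII:781517-781816: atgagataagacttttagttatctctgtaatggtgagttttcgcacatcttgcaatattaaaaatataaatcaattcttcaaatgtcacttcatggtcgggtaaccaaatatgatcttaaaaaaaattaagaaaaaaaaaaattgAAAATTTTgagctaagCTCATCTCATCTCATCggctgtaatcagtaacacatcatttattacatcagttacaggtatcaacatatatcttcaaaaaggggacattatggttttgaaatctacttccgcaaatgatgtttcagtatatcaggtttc
SOF1, chrXII:127273-127572: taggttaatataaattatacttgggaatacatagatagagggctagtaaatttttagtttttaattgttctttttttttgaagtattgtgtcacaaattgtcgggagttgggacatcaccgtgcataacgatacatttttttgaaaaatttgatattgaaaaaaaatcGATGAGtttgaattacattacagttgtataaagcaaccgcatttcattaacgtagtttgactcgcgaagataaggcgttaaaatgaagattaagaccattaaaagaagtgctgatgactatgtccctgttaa
NOP1, chrIV:427114-427413: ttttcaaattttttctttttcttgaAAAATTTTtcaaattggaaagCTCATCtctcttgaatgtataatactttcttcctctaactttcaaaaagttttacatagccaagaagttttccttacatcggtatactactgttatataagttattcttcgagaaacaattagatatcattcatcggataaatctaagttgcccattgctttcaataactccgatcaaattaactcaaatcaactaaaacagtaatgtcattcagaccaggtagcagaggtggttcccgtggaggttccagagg
UTP22, chrVII:662108-662407: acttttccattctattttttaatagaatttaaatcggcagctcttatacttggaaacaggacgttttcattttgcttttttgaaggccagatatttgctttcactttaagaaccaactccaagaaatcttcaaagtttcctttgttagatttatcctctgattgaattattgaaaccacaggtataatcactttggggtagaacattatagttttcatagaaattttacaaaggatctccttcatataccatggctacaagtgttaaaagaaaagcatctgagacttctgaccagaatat
In these windows LTV1 and NOP1 held 1 match to each core, ENP2 held 3 matches to the PAC core and 1 to the RRPE core, and SOF1 held the PAC core alone. UTP22 held neither core. Over the whole set, 34 of 36 windows (94.4%) held the PAC core, against 1220 of 5993 windows of protein-coding genes (20.4%). The RRPE core was in 30 of 36 (83.3%), against 542 of 5993 (9.04%). Both cores were in 29 of 36 (80.6%) and in 4.39% of all windows. A match is a description of letters in this window and does not show a binding site.

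As a group, the assembly genes were lower in WT after copper was added, were lowest between 20 and 30 min, and were back at or above their starting level at 60 min. Their summed level was 11856 ± 1484 (SD, n = 3) CPM at 0 min (11000.0 ± 77.8 (SD, n = 2) without WT 0 min replicate 1), 7209.9 ± 293 (SD, n = 2) at 20 min, 6761 ± 403 (SD, n = 2) at 30 min and 13352 ± 532 (SD, n = 2) at 60 min. The array strain went from 12487 ± 670.3 (SD, n = 2) CPM at 0 min to 9531 ± 63.9 (SD, n = 2) at 20 min, 9782 ± 1032 (SD, n = 2) at 30 min and 11845 ± 263 (SD, n = 2) at 60 min. The median gene's level relative to its own mean over all libraries was -0.52 and -0.49 (log2) in the WT 20 min libraries and -0.04 and -0.12 in the array 20 min libraries. At 25 min the WT libraries lay apart from each other, at -0.21 and -0.68, so the depth of the WT minimum at that time is poorly fixed. WT 60 min replicates lay at 0.49 and 0.41, the highest of all WT libraries.

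**Figure D1:**
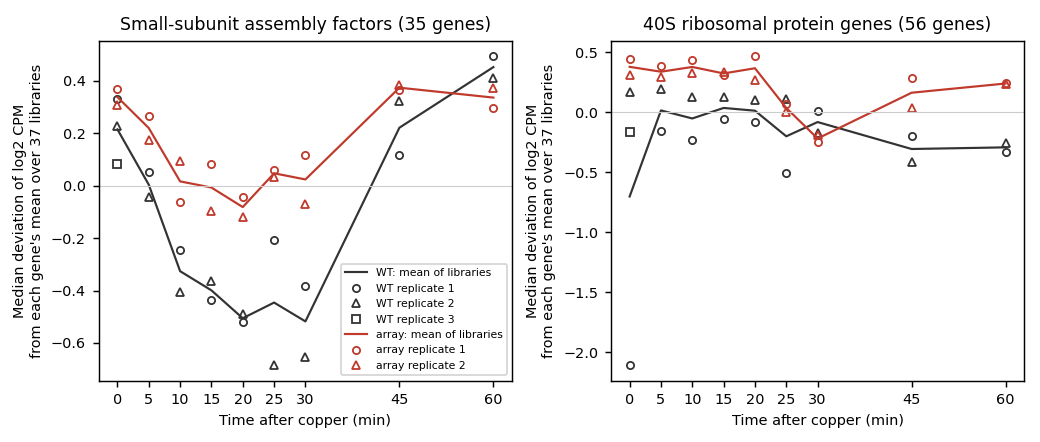
Level of the 35 tested assembly genes in each library, by strain and minutes after copper: the median over genes of the log2 level relative to each gene's mean over all libraries. WT libraries reach -0.68 at 25 min and 0.49 at 60 min, and array libraries stay between -0.12 and 0.38.

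In WT at 20 min against 0 min, 20 of the 35 genes were called lower and 0 higher (edgeR quasi-likelihood test, Benjamini-Hochberg adjusted p under 0.05 over all 4995 tested genes), where 3.42% of all tested genes were called lower and 2.12% higher. The median log2 change was -0.79 for the assembly genes and -0.01 for all tested genes, and 31 of 35 lay below 0. Leaving out WT 0 min replicate 1 gave 18, of which 17 were in the full count, with a median of -0.61. In that fit 419 of all tested genes were called in either direction. Leaving out replicate 1 or replicate 2 of WT 20 min gave 4 and 2, and 0 when only these 5 libraries were fitted. LTV1 and ENP2 stayed called with any 1 of the 5 libraries left out, and the other 18 each lost the call without 1 or both of the WT 20 min libraries (edgeR adjusted p = 0.0516 to 0.344). At 20 min against 5 min, a baseline that does not use the 0 min libraries, edgeR called 0 of 35 genes lower (0.04% of all tested genes), 16 had an unadjusted p under 0.05, and DESeq2 called 1. The median was -0.50 there, and in 28 genes both 20 min libraries lay below both 5 min libraries, as in 18.1% of all tested genes. From 20 to 60 min in WT, 25 genes were called higher and 0 lower (4.42% of all tested genes were called higher and 2.02% lower), with a median of 0.93 against -0.04 for all tested genes. Leaving out replicate 1 or 2 of WT 20 min gave 10 and 9, and leaving out replicate 1 or 2 of WT 60 min gave 9 and 17. ENP2, LTV1, SOF1, UTP21, UTP14 and RRP12 stayed called in each of these 4 fits, and the other 19 lost the call in at least 1 of them (edgeR adjusted p = 0.0506 to 0.324). The 2 comparisons share the WT 20 min libraries and are not independent. A test of any difference among the 8 WT times from 5 to 60 min, which uses no 0 min library, called 23 of 35 genes (6.33% of all tested genes), and 10 or 13 when replicate 1 or 2 of WT 60 min was left out.

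**Figure D2:**
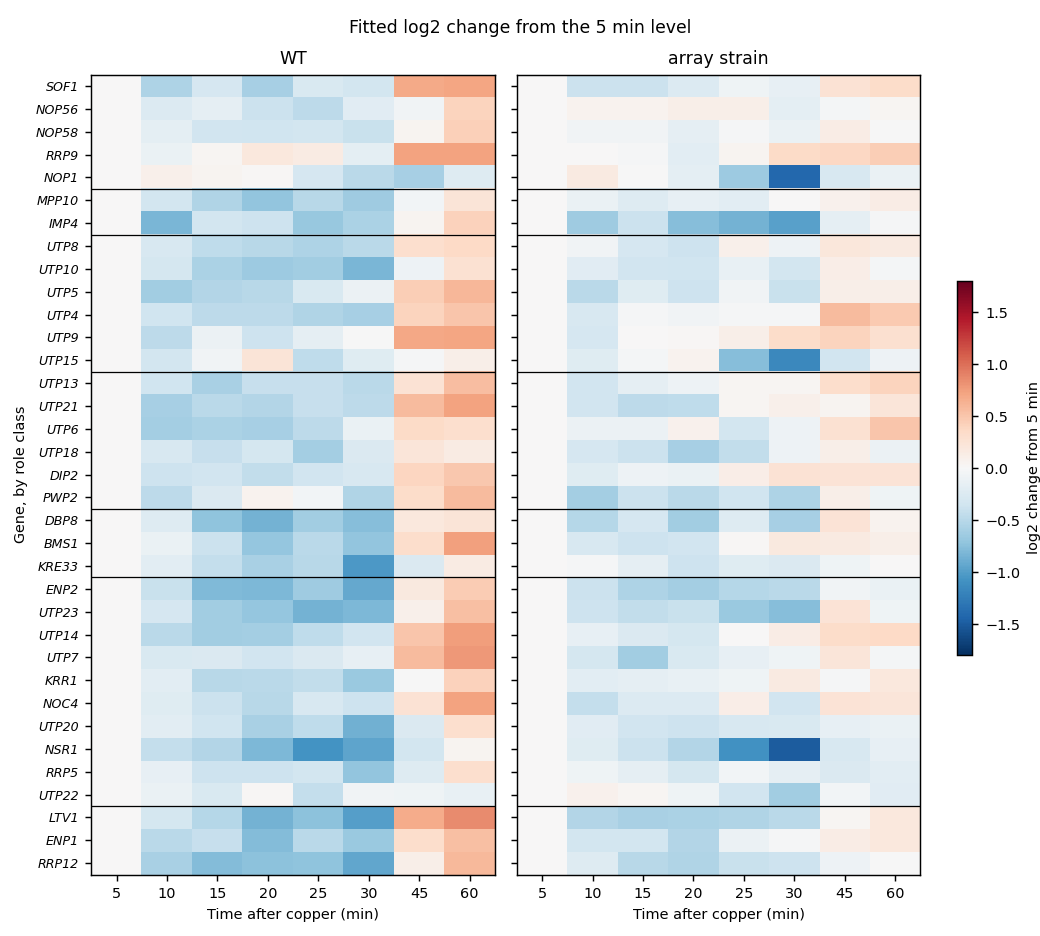
Log2 change of each assembly gene against 5 min of its own strain, at each later time, in WT and in the array strain. Genes are ordered by role. Most WT rows are low from 10 to 30 min and near or above 0 at 45 and 60 min, and most array rows stay closer to 0.

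The late 40S factors were all 3 called lower in WT at 20 min and all 3 called higher from 20 to 60 min. Ltv1 rides on the pre-40S particle and helps it leave the nucleus, Enp1 binds the same particle from the processome stage on, and Rrp12 is a nuclear export factor. LTV1 (YKL143W, chrXI:176781-178172, plus strand) was at 306, 196 and 212 CPM in WT at 0 min, 161 and 134 at 5 min, 82.9 and 80.8 at 20 min and 291 and 243 at 60 min. Both 20 min libraries lay below all the 0, 5 and 60 min libraries. The log2 change was -1.52 at 20 min against 0 min (SE 0.22, edgeR adjusted p = 0.000323) and 1.70 from 20 to 60 min (SE 0.23, edgeR adjusted p = 0.000182). In the array strain LTV1 was at 195 and 242 CPM at 0 min, 139 and 129 at 20 min and 228 and 225 at 60 min. The array groups at 0 and 20 min did not overlap either, but the change (-0.70, SE 0.23) did not pass the test (edgeR adjusted p = 0.478). RRP12 was at 478, 311 and 266 CPM in WT at 0 min, 191 and 189.6 at 20 min and 506 and 448 at 60 min, with log2 changes of -0.87 (edgeR adjusted p = 0.0109) and 1.32 (edgeR adjusted p = 0.000648). ENP1 changed by -1.05 (edgeR adjusted p = 0.0157) and 1.32 (edgeR adjusted p = 0.00367), and the former was -0.67 without WT 0 min replicate 1 (edgeR adjusted p = 0.0486). At 60 min against 0 min LTV1, ENP1 and RRP12 differed by 0.18, 0.27 and 0.45 (log2), and none of those differences passed the test. Without WT 0 min replicate 1 they were 0.38, 0.65 and 0.73, and ENP1 and RRP12 were called higher (edgeR adjusted p = 0.0306 and 0.00445).

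Among the other processome factors, 7 of 10 were called lower in WT at 20 min (5 of 10 without WT 0 min replicate 1) and 8 of 10 higher from 20 to 60 min. ENP2 (YGR145W, chrVII:781767-783890, plus strand), which encodes a nucleolar factor needed for 18S rRNA, was at 566, 380.0 and 496 CPM in WT at 0 min, 368 and 312 at 5 min, 178 and 211 at 20 min and 482 and 455 at 60 min. The 20 min libraries were the lowest of these 4 groups, without overlap. ENP2 changed by -1.30 (SE 0.21, edgeR adjusted p = 0.000669) and then by 1.27 (SE 0.22, edgeR adjusted p = 0.000947) on the log2 scale. In the array strain it was at 503 and 434 CPM at 0 min, 280.1 and 271 at 20 min and 368 and 408 at 60 min, so it was also lower in both 20 min libraries (log2 change -0.77, edgeR adjusted p = 0.385). UTP14, whose protein activates the helicase that releases U3 from the pre-rRNA, was at 766, 421 and 443 CPM in WT at 0 min, 232 and 226 at 20 min and 623 and 561 at 60 min. Its log2 changes were -1.23 (edgeR adjusted p = 0.00227) and 1.37 (edgeR adjusted p = 0.000950), and both 20 min libraries lay below those at 0 and 60 min. UTP23 (YOR004W, chrXV:333592-334356, plus strand), whose protein helps to release the snR30 snoRNA, was at 109, 134 and 182 CPM in WT at 0 min, 59.2 and 57.9 at 20 min and 153 and 125 at 60 min. The WT 0 min libraries of UTP23 were spread widely, with replicate 3 highest, and the change of -1.30 (SE 0.29, edgeR adjusted p = 0.00793) was not called without WT 20 min replicate 1 (edgeR adjusted p = 0.0854) or replicate 2 (edgeR adjusted p = 0.123). Its rise of 1.24 (SE 0.31) passed the test (edgeR adjusted p = 0.0144), though not without WT 20 min replicate 1 or 2 or WT 60 min replicate 1 (edgeR adjusted p = 0.108, 0.124 and 0.188).

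Of the remaining processome factors, UTP7, UTP20, KRR1 and NOC4 were called in both WT comparisons, with log2 changes between -0.93 and -0.74 at 20 min against 0 min. Utp20 is a large scaffold protein, Krr1 an RNA-binding protein of the KH family, and Noc4 a partner of Nop14. Without WT 0 min replicate 1, UTP7 and KRR1 were not called at 20 min (-0.69 and -0.56, edgeR adjusted p = 0.0859 and 0.0543), and the change of UTP20 was -0.48 (edgeR adjusted p = 0.0364). RRP5 (YMR229C, chrXIII:725934-731123, minus strand), whose protein is needed for both subunits, had the highest mean CPM of the set. It was at 2044, 1654 and 1504 CPM in WT at 0 min, 1192 and 1329 at 20 min and 2035 and 1981 at 60 min. Its 20 min libraries lay below those at 0 and 60 min, yet its change of -0.46 (SE 0.19) did not pass the test (edgeR adjusted p = 0.160). Its rise of 0.67 did (SE 0.21, edgeR adjusted p = 0.0485), but not with any 1 of the 4 libraries left out (edgeR adjusted p = 0.158 to 0.250).

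The enzymes were all 3 called lower in WT at 20 min, and KRE33 and BMS1 were called higher from 20 to 60 min. Kre33 acetylates cytidines of 18S rRNA, Bms1 is the GTPase of the processome, and Dbp8 is a DEAD-box helicase. KRE33 (YNL132W, chrXIV:375321-378491, plus strand) was at 314, 283 and 301 CPM in WT at 0 min, 272 and 276 at 5 min, 173 and 193 at 20 min, 144 and 123 at 30 min and 287 and 323 at 60 min. The WT libraries at 20 and 30 min were all below those at 0, 5 and 60 min, and 30 min was lower still than 20 min. Its log2 changes were -0.71 (SE 0.15, edgeR adjusted p = 0.00689) and 0.74 (SE 0.17, edgeR adjusted p = 0.00645). Its rise was not called without WT 20 min replicate 1 (edgeR adjusted p = 0.0967) or WT 60 min replicate 2 (edgeR adjusted p = 0.0844). KRE33 at 20 min was not called without WT 20 min replicate 1 (edgeR adjusted p = 0.105) or replicate 2 (edgeR adjusted p = 0.0675). BMS1 was at 1233, 442 and 375 CPM in WT at 0 min, 293 and 259.8 at 20 min and 794 and 706 at 60 min. The 0 min value of BMS1 rested on replicate 1: without that library its fall of -1.29 became -0.56 and was not called (edgeR adjusted p = 0.117). Its rise from 20 to 60 min was 1.44 (edgeR adjusted p = 0.0146). That rise was not called in most fits with 1 of the WT 20 or 60 min libraries left out. DBP8 was counted thinly, with 8 to 81 counts per library, and its change of 1.09 from 20 to 60 min did not pass the test (edgeR adjusted p = 0.121).

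**Figure D3:**
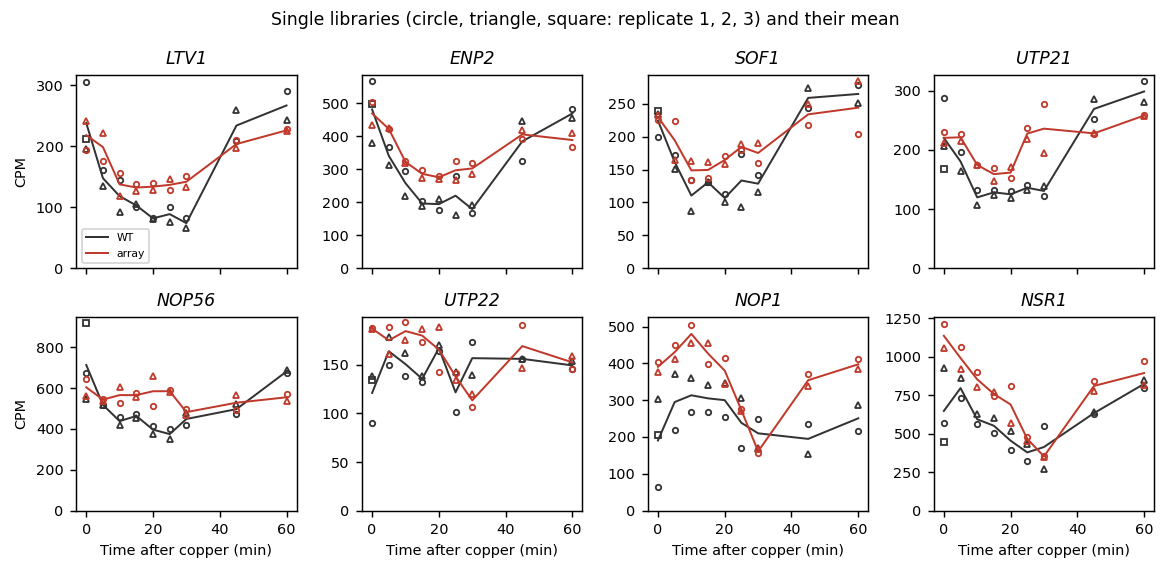
Level (CPM, TMM-scaled) of LTV1, ENP2, SOF1, UTP21, NOP56, UTP22, NOP1 and NSR1 in each library against minutes after copper, with points for libraries and lines through the group means of WT and the array strain. LTV1, ENP2, SOF1, UTP21 and NOP56 dip and return in WT. In the array strain NOP56, NOP1, UTP22 and NSR1 have their lowest mean at 30 min.

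Of the box C/D and U3 snoRNP proteins, NOP56, NOP58 and SOF1 were called lower in WT at 20 min and higher from 20 to 60 min, while NOP1 and RRP9 were called in neither comparison. Nop56 and Nop58 are core proteins of box C/D snoRNPs, Nop1 (fibrillarin) is their methyltransferase, and Sof1 and Rrp9 are WD-repeat proteins linked to U3. SOF1 (YLL011W, chrXII:127523-128992, plus strand) was at 199, 235 and 239 CPM in WT at 0 min, 173 and 151 at 5 min, 113 and 100.1 at 20 min and 279 and 251 at 60 min. Both 20 min libraries were below every library of the other 3 groups. Its log2 changes were -1.08 (SE 0.22, edgeR adjusted p = 0.00541) and 1.31 (SE 0.24, edgeR adjusted p = 0.00111). NOP56 (YLR197W, chrXII:546097-547611, plus strand) was at 673, 548 and 922 CPM in WT at 0 min, 416 and 377 at 20 min and 677 and 687 at 60 min. Its 20 min libraries lay below those at 0 and 60 min, with log2 changes of -0.85 (SE 0.18, edgeR adjusted p = 0.00622) and 0.78 (SE 0.19, edgeR adjusted p = 0.0129). In the array strain NOP56 was at 645 and 564 CPM at 0 min, 512 and 658 at 20 min and 572 and 539 at 60 min, and those groups overlapped. At 20 min against 0 min SOF1 was not called without WT 20 min replicate 1 (edgeR adjusted p = 0.0516) or replicate 2 (edgeR adjusted p = 0.121), nor was NOP56 (edgeR adjusted p = 0.0587 and 0.132). The rise of NOP56 was not called with any 1 of its 4 libraries left out (edgeR adjusted p = 0.0783 to 0.154). RRP9 changed by 0.01 and 0.53 (log2).

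Within the Mpp10 complex, MPP10 was called in both WT comparisons and IMP4 in neither. MPP10 (YJR002W, chrX:438865-440646, plus strand), the scaffold of this U3-associated complex, was at 247, 208 and 195 CPM in WT at 0 min, 191 and 173 at 5 min, 105 and 118 at 20 min and 235 and 193 at 60 min. Its 20 min libraries were the lowest of these groups. The log2 changes were -0.95 (SE 0.24, edgeR adjusted p = 0.0157) and 0.94 (SE 0.25, edgeR adjusted p = 0.0223), and the former was not called without WT 20 min replicate 1 (edgeR adjusted p = 0.152) or replicate 2 (edgeR adjusted p = 0.132). The latter was not called without WT 20 min replicate 1 or 2 or WT 60 min replicate 1 (edgeR adjusted p = 0.172, 0.112 and 0.237). IMP4, a binding partner of Mpp10, was at 29.2, 156 and 190.3 CPM in WT at 0 min and 86.3 and 86.0 at 20 min, so WT 0 min replicate 1 lay below the 20 min libraries and the other 0 min libraries lay above them. Without that replicate IMP4 was called lower at 20 min (-1.01, edgeR adjusted p = 0.00764). IMP3 (YHR148W, chrVIII:393534-394085, plus strand), the lowest of the set, had 85 counts over all libraries and at most 8 in any, from 0 to 15.9 CPM, and was not tested. In its 4 libraries without a count, all of the array strain, a count of 0 allows a level of up to 3 counts, and no change of IMP3 was detectable at this depth.

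UtpA, the complex that binds the start of the pre-rRNA and was linked to its transcription in yeast, had 2 of 6 genes called lower in WT at 20 min and 5 of 6 called higher from 20 to 60 min. UTP10 (YJL109C, chrX:212000-217309, minus strand) was at 409, 459.8 and 474 CPM in WT at 0 min, 428 and 404 at 5 min, 252 and 279 at 20 min and 509.7 and 498 at 60 min. The 20 min libraries lay below those of the other 3 groups. Its log2 changes were -0.76 (SE 0.17, edgeR adjusted p = 0.00890, not called without WT 20 min replicate 1 at 0.127 or replicate 2 at 0.0855) and 0.92 (SE 0.18, edgeR adjusted p = 0.00238). UTP9 (YHR196W, chrVIII:491931-493658, plus strand) was at 298, 269.8 and 232 CPM in WT at 0 min, 171 and 207 at 20 min and 416 and 383 at 60 min. Its log2 change was -0.49 at 20 min (edgeR adjusted p = 0.168) and 1.08 from 20 to 60 min (SE 0.22, edgeR adjusted p = 0.00305), and of these 2 comparisons only the rise passed the test. Without WT 20 min replicate 1 neither rise was called (edgeR adjusted p = 0.0575 for UTP10 and 0.0642 for UTP9). UTP4, UTP5 and UTP8 were called higher at 60 min, with log2 changes of 0.98, 1.09 and 0.87. With any 1 of the WT 20 or 60 min libraries left out UTP4 and UTP8 were not called, nor was UTP5 in most such fits. UTP15 was the 1 gene of UtpA that did not fall and return, as given below.

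UtpB, the next complex to join, had 1 of 6 genes called lower in WT at 20 min and 3 of 6 called higher from 20 to 60 min. UTP21 (YLR409C, chrXII:934414-937233, minus strand) was at 287, 206 and 167 CPM in WT at 0 min, 197 and 164 at 5 min, 130.3 and 119 at 20 min and 317 and 280.3 at 60 min. Its highest value was in WT 60 min replicate 1, and its 20 min libraries lay below those at 0, 5 and 60 min. The log2 changes were -0.79 (SE 0.19, edgeR adjusted p = 0.0134) and 1.25 (SE 0.20, edgeR adjusted p = 0.000599). The former was not called without WT 20 min replicate 1 (edgeR adjusted p = 0.0817) or replicate 2 (edgeR adjusted p = 0.197). DIP2 and UTP13 were called higher from 20 to 60 min, by 0.93 and 0.97. With any 1 of the WT 20 or 60 min libraries left out UTP13 was not called, and DIP2 was called only in some such fits. UTP6 (YDR449C, chrIV:1357580-1358902, minus strand) was at 47.8, 117 and 93.0 CPM in WT at 0 min, 59.2 and 59.7 at 20 min and 109.5 and 113 at 60 min. Its 0 and 20 min groups overlapped through WT 0 min replicate 1, and neither -0.58 nor 0.90 passed the test (edgeR adjusted p = 0.282 and 0.106). PWP2 and UTP18 were called in neither comparison, with changes of -0.20 and -0.54 at 20 min.

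NOP1, UTP22 and UTP15 were not lower in WT at 20 min against 0 min, nor was RRP9, given above, with a change of 0.01 (log2). NOP1 and UTP22 had the largest p of the set at 20 min against 5 min, and UTP15, like NSR1 in the next paragraph, was singled out after its values were seen. Utp22 works in a complex with Rrp7, and Utp15 belongs to UtpA. NOP1 (YDL014W, chrIV:427364-428347, plus strand) was at 63.8, 303 and 204 CPM in WT at 0 min, 219.9 and 369.7 at 5 min, 254 and 346 at 20 min and 215 and 286 at 60 min. WT 0 min replicate 1 was the lowest of these and the groups at 0 and 20 min overlapped, the change of 0.62 (SE 0.34) not passing the test (edgeR adjusted p = 0.306). Without WT 0 min replicate 1 it was 0.26, and without replicate 2 it was 1.07 and called higher (edgeR adjusted p = 0.0364). UTP22 (YGR090W, chrVII:662358-666071, plus strand) was at 90.4, 139 and 134 CPM in WT at 0 min, 149.9 and 178 at 5 min, 164 and 170.3 at 20 min and 145 and 154 at 60 min. Its 20 min libraries lay above all 0 and 60 min libraries, with a change of 0.44 that did not pass the test (SE 0.18, edgeR adjusted p = 0.167). UTP15 changed by 0.47 over the same times (edgeR adjusted p = 0.544).

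In the array strain 7 genes had their lowest mean at 30 min: NOP1, UTP22, UTP15, UTP23, NOP56, IMP4 and NSR1, whose protein is the yeast relative of nucleolin. NSR1 (YGR159C, chrVII:806412-807656, minus strand) was at 1213 and 1059.7 CPM at 0 min, 808 and 571 at 20 min, 357 and 348 at 30 min and 972 and 816 at 60 min. It was the 1 gene of the set called lower in the array strain at 30 min against 0 min (-1.69, SE 0.29, edgeR adjusted p = 0.00406), where 0.521% of all tested genes were called lower; this comparison was added after the data were seen. NSR1 stayed called without array 0 min replicate 2 (edgeR adjusted p = 0.0232) but not without array 0 min replicate 1 (edgeR adjusted p = 0.0842), array 30 min replicate 1 (0.0579) or array 30 min replicate 2 (0.144). With the replicate number as a block, 3 of 35 genes were called (4.98% of all tested genes), and with only these libraries 13 (30.9%). NOP1 went from 404 and 377 to 155 and 166 CPM (-1.28, edgeR adjusted p = 0.0849), a gap that both libraries showed. UTP22 changed by -0.72 (edgeR adjusted p = 0.0811) and UTP15 by -1.21 (edgeR adjusted p = 0.145) in the same comparison. Over all 35 genes the median was -0.37, against 0.02 for all tested genes. The 56 genes for 40S ribosomal proteins had a median of -0.62 there, with 51 below 0, 16 at an unadjusted p under 0.05 and none called. DESeq2 called 2 of those 56 lower. The part of the ribosomal protein genes in the course of these genes was not tested.

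At 60 min against 0 min the WT genes had a small median difference, and how many were called depended on WT 0 min replicate 1. EdgeR called 0 of 35 at 60 min against 0 min (0.621% of all tested genes were called), with 5 at an unadjusted p under 0.05 and 0 by DESeq2. The median was 0.20, with 26 of 35 above 0. Without WT 0 min replicate 1 the median was 0.32 and 6 genes were called higher and 0 lower, namely UTP9, UTP21, DIP2, BMS1, ENP1 and RRP12, where 11.5% of all tested genes were called in either direction. With all libraries UTP9 was the gene with the largest difference, 0.59 (SE 0.19, edgeR adjusted p = 0.237), and DBP8 the gene furthest below 0, -0.50 (SE 0.32, edgeR adjusted p = 0.707). By the mean of a group, 23 genes were highest in WT at 60 min and 7 at 0 min (24 and 7 without WT 0 min replicate 1). The lowest WT mean fell at 30 min for 13 genes, at 20 min for 7 and at 25 min for 6. WT at 30 min against 0 min, added after the data were seen, gave 20 genes lower (3.36% of all tested genes) and a median of -0.81. The count was 17 and the median -0.66 without WT 0 min replicate 1, where 448 of all tested genes were called in either direction. Leaving out replicate 1 or 2 of WT 30 min gave 10 and 6, and the count was 0 with only the libraries compared.

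By their median, the genes of the array strain were also lower at 20 min than at 0 and 60 min, and no gene passed the test in these comparisons. At 20 min against 0 min edgeR called 0 of 35 genes (0.02% of all tested genes lower), 14 had an unadjusted p under 0.05, and DESeq2 called 0. The median was -0.43 against 0.02 for all tested genes, 34 of 35 genes lay below 0, and in 29 genes both 20 min libraries were below both 0 min libraries, as in 18.7% of all tested genes. With only the libraries compared, 4 genes were called (1.24% of all tested genes). DBP8 had the lowest fitted change, -1.02 (SE 0.37, edgeR adjusted p = 0.579), followed by ENP1 at -0.87 (SE 0.27, edgeR adjusted p = 0.448). ENP1 was at 221 and 225 CPM at 0 min, 130.2 and 113 at 20 min and 172 and 227 at 60 min, and its 20 min libraries lay below the others without overlap. Against 5 min edgeR called 0 of 35 at 20 min (0.0% of all tested genes), with 5 at an unadjusted p under 0.05, 0 by DESeq2 and a median of -0.32. From 20 to 60 min edgeR called 0 (0.0% of all tested genes), with 10 at an unadjusted p under 0.05, 0 by DESeq2, 3 with only the libraries compared (2.21% of all tested genes), and a median of 0.42. There, 29 genes were higher in both 60 min libraries than in both 20 min libraries, as were 20.4% of all tested genes. Any difference among 5 to 60 min was called by edgeR in 0 genes (0.38% of all tested genes), with 8 at an unadjusted p under 0.05, and in 1 gene by DESeq2 and by voom, 1 with the replicate block and 16 with only the libraries compared (21.8% of all tested genes). At 60 min against 0 min the median was -0.01, and edgeR called 0 (0.0801% of all tested genes), with 0 at an unadjusted p under 0.05 and 0 by DESeq2. The lowest array mean fell at 20 min for 13 genes, at 10 min for 9, at 30 min for 7, at 15 min for 5 and at 25 min for 1.

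**Figure D4:**
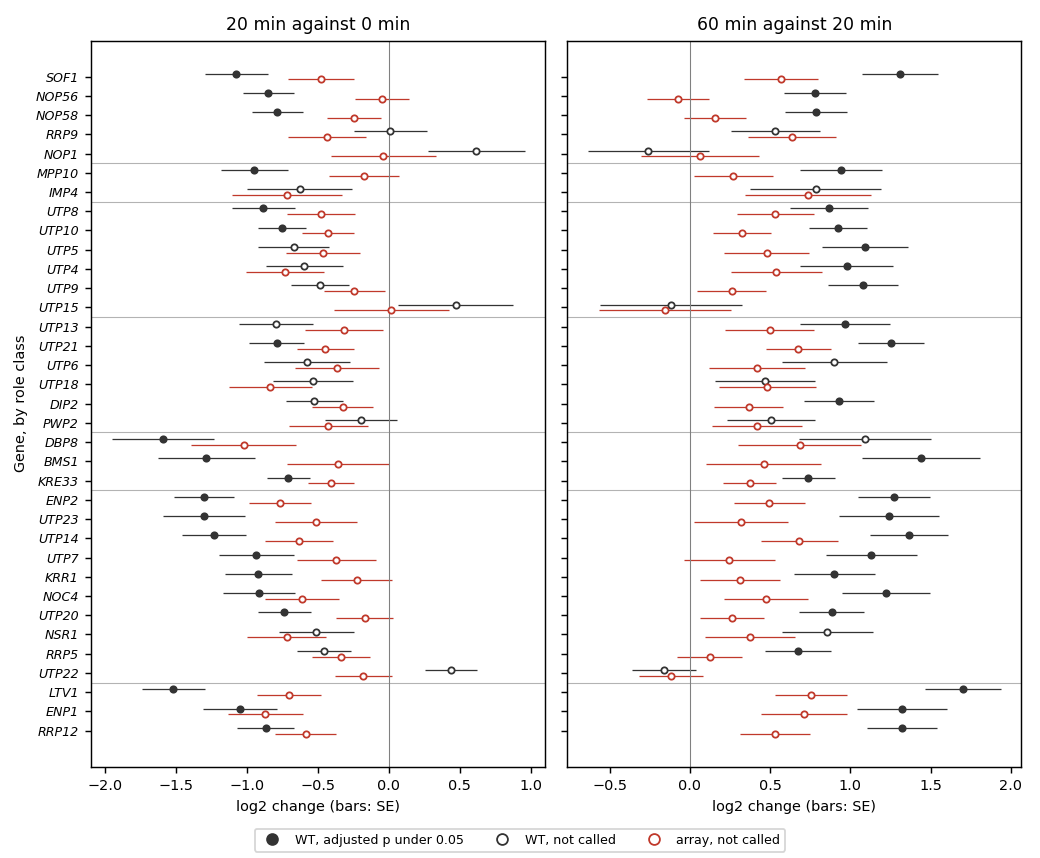
Fitted log2 change of each tested assembly gene with its standard error: 20 min against 0 min and 60 min against 20 min in each strain, grouped by role. WT changes run from -1.59 to 0.62 and from -0.26 to 1.70, and most array changes lie closer to 0. UTP18 and RRP9 are among the exceptions at 20 min against 0 min.

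Between the strains, most of the assembly genes were higher in the array libraries than in the WT libraries at 20 and 30 min, while the median difference was below 0 at 60 min and, at 0 min, depended on WT 0 min replicate 1. Of single genes, 4 passed the test at 30 min and none at the other times. At 0 min the median difference (array minus WT) was 0.04, 0.24 without WT 0 min replicate 1 and -0.20 on library totals, which moved the median of all tested genes by -0.23. EdgeR called 0 of 35 (3.44% of all tested genes), 7 had an unadjusted p under 0.05, DESeq2 called 0 and the replicate block called 1 (5.91%). Without WT 0 min replicate 1, 2 and 3 the count was 2, 6 and 1, where 4.52%, 17.7% and 5.48% of all tested genes were called. At 20 min the median was 0.40 against 0.02 for all tested genes, 33 of 35 genes lay above 0, and in 28 genes both array libraries lay above both WT libraries, as in 26.1% of all tested genes. None was called by edgeR (0.841% of all tested genes were called higher) or DESeq2, 11 had an unadjusted p under 0.05, and 9 were called with only the libraries compared (7.99% of all tested genes). UTP9 was at 171 and 207 CPM in WT and 316 and 288 in the array strain at 20 min, a difference of 0.68 (SE 0.22, edgeR adjusted p = 0.150). UTP23 was at 59.2 and 57.9 and 112 and 113 (0.94, SE 0.32, edgeR adjusted p = 0.179). UTP6 was at 59.2 and 59.7 and 137 and 91.5 (0.95, SE 0.33, edgeR adjusted p = 0.185). In each of these 3 genes the strains did not overlap, as was also true of LTV1 (0.71, edgeR adjusted p = 0.183) and NOP56 (0.56, edgeR adjusted p = 0.187). These 5 had the smallest p of the set at 20 min.

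At 30 min, a comparison added after the data were seen, 4 genes were called higher in the array strain and 0 lower, where 1.9% of all tested genes were called higher and 1.82% lower. The median difference was 0.56 against 0.0043 for all tested genes, and in 24 genes the array libraries lay above both WT libraries, as in 29.6% of all tested genes. KRE33 was at 144 and 123 CPM in WT and 259.8 and 254 in the array strain, which did not overlap (0.94, SE 0.17, edgeR adjusted p = 0.00169). LTV1 was at 82.3 and 65.7 and 151 and 133 CPM (0.93, SE 0.25, edgeR adjusted p = 0.0323). UTP21 was at 123 and 138 and 277 and 195 CPM (0.85, SE 0.21, edgeR adjusted p = 0.0187). UTP20 was at 272 and 320.0 and 524 and 461 CPM (0.74, SE 0.20, edgeR adjusted p = 0.0423). All 4 were higher in both array libraries than in both WT libraries. KRE33 alone stayed called with any 1 of the 4 libraries left out, where 1 or 2 genes were called. LTV1 and UTP20 lost the call in each of those 4 fits and UTP21 in 3 of them (edgeR adjusted p = 0.0605 to 0.390). The count was 1 on library totals without TMM, 6 by DESeq2, 5 by voom, 12 with the replicate block and 17 with only the libraries compared, where 3.32%, 3.88%, 3.68%, 6.75% and 19.2% of all tested genes were called. At 60 min the median was -0.14, edgeR called 0 of 35 (0.861% of all tested genes), 1 had an unadjusted p under 0.05, DESeq2 called 0 and a fit of only the libraries compared called 4, a share below the 14.3% of all tested genes called there. There, 17 genes were lower in both array libraries than in both WT libraries, as were 28.0% of all tested genes.

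Whether the strains differed in the change itself was tested as an interaction. For 60 min against 20 min, the median of the array change minus the WT change was -0.59, 31 of 35 genes lay below 0 and 11 had an unadjusted p under 0.05, but edgeR and DESeq2 called 0 genes (0.0% of all tested genes by edgeR), the smallest edgeR adjusted p being 0.999. NOP56 had the smallest unadjusted p, with an interaction of -0.85 (SE 0.27), followed by LTV1 with -0.95 (SE 0.33) and UTP9 with -0.82 (SE 0.31). For 20 min against 5 min the median was 0.23, and edgeR called 0 (0.0% of all tested genes), with 0 at an unadjusted p under 0.05 and 0 by DESeq2. The difference in change between the strains thus did not pass the test in any of the 35 genes. Beside these strain differences, the 5 MATa markers were all called higher in the array strain at 0, 20 and 60 min, with medians of 3.37, 2.52 and 2.72 (log2), and 4 of 5 at 30 min. Their summed level was 162 to 477 CPM over the WT libraries and 1279 to 2741 CPM over the array libraries, and none was at 0 in any library. The 40S ribosomal protein genes had a median of 0.38 at 20 min, all 56 above 0 and none called, and -0.12 at 30 min. The part of either in the strain differences was not tested.

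The other small-subunit factors, which were not in the set, took a like course in WT. EdgeR called 23 of 46 lower at 20 min against 0 min (median -0.82) and 25 of 46 higher from 20 to 60 min (median 0.99). The former count was 21 without WT 0 min replicate 1 and 1 without either WT 20 min library, and the latter was 9 without WT 20 min replicate 1, 15 without replicate 2 and 12 without WT 60 min replicate 1. HCA4, a helicase of the processome, changed by -1.10 (SE 0.16, edgeR adjusted p = 0.000323) and 1.44 (edgeR adjusted p = 2.93e-05). It was the 1 gene of that list called in the array strain at 20 min against 0 min (-0.94, SE 0.16, edgeR adjusted p = 0.0240). RRP8, an rRNA methyltransferase, changed by -1.10 (edgeR adjusted p = 0.00320) and 1.49 (edgeR adjusted p = 0.000470) in WT. Of the 60S assembly factors, 29 of 46 were called lower and 37 of 46 higher in the same WT comparisons, with medians of -0.90 and 1.13. The count of lower genes was 27 with WT 0 min replicate 1 left out, and 6 and 1 with replicate 1 and 2 of WT 20 min left out. The count of higher genes was 24 and 21 without the same WT 20 min libraries and 22 without WT 60 min replicate 1. NOC2, of a 60S assembly and export complex, changed by -1.17 (edgeR adjusted p = 0.000966) at 20 min against 0 min, and DBP10, a helicase, by -1.29 (edgeR adjusted p = 0.00110). With all libraries, these counts are read against 3.42% of all tested genes called lower and 4.42% called higher. Without WT 0 min replicate 1, 419 of all tested genes were called in either direction at 20 min against 0 min.

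Of the RNA polymerase I list, 2 of 12 tested genes were called lower and 2 higher in those WT comparisons, with medians of -0.43 and 0.69. They were RPA43 (-1.12, edgeR adjusted p = 0.000643) and RPA34 (-0.95, edgeR adjusted p = 0.00608), which encode subunits of the polymerase, and both were higher from 20 to 60 min. Without either WT 20 min library 1 gene was called lower. The regulators of the regulon, among them SFP1, DOT6, TOD6 and STB3, had 0 of 10 called by edgeR or DESeq2 in either comparison, with 5 and 4 at an unadjusted p under 0.05. At 20 min against 0 min, 2 regulators were called higher without WT 0 min replicate 1, 2 lower without replicate 2 and 1 lower without replicate 3. In those fits, in the same order, 419, 690 and 337 of all tested genes were called in either direction. The 56 genes of 40S ribosomal proteins, the subunit's own proteins, had 0 called by edgeR or DESeq2 in either comparison, with 2 and 4 at an unadjusted p under 0.05. Their median at 20 min against 0 min was 0.38, above 0 where the assembly genes were below, but it was -0.01 without WT 0 min replicate 1, in which those genes were low, and then 1 was called lower. Without WT 0 min replicate 2 the test called 5 of them higher, where 690 of all tested genes were called in either direction. From 20 to 60 min their median was -0.32.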

How the data were processed

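The authors deposited whole-number read counts for each gene, not normalized, in 1 column for each of the 37 libraries. Per the submitters' processing notes, the genome build was R64 and the tools were HTSeq 2.0.2, STAR 2.7.10a, FastQC 0.11.9 and SAMtools 1.10. Whether counting used strand, and which annotation, is not given in the sources used here, so reads of overlapping and antisense genes cannot be told apart. Reads in no gene made up 34.8% to 50.6% of the listed reads and were kept out of library sizes, as were reads aligned at several places. No molecular identifiers are mentioned, so intervals and floors cover counting error only. The floor of 3 counts was 3.38 to 9.84 CPM in single libraries.

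From these counts, 1 edgeR 4.0.16 fit (R 4.3.3, genes kept by filterByExpr at a minimum count of 10, libraries scaled by TMM, quasi-likelihood tests) covered 18 groups, with 4995 genes, 19 residual degrees of freedom and a biological coefficient of variation of 19.6%. P-values were adjusted over all tested genes within each comparison (Benjamini-Hochberg), and a gene was called under 0.05. Alternatives were DESeq2 1.42.0, limma 3.58.1 voom, DESeq2 size factors, library totals, no filter, the replicate number as a block, a fit of only the libraries compared, and each library left out. The code was tested on simulated counts.

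Replicate numbers mark a culture sampled over time, per the labels' growth note, so they pair samples within a strain. The log2 difference between replicate 1 and replicate 2 was taken for each tested gene at each time, without WT 0 min replicate 3. Those differences correlated at a median of 0.09 over 36 pairs of WT times (-0.39 to 0.57). The median was 0.07 over 36 pairs of array times (-0.17 to 0.21) and -0.02 between strains over 9 times. No library pair of a group agreed within counting noise (chi-square per degree of freedom 1.37 to 35.3).

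The members and the lists were chosen with earlier results of these data known. Full values were given for the member of each role class with the smallest p in WT at 20 min against 5 min, the 5 with the smallest p between strains at 20 min, the 2 with the largest p in WT at 20 min against 5 min, and those with the highest and lowest mean CPM. Other members named were chosen after their values were seen. Promoter windows were read from the R64 genome sequence of RefSeq. No amino acid sequences were used here.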

Additional observations from a re-analysis of the deposited data

How the results depend on the processing

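Of the recomputed counts of called assembly genes, 196 stayed within 1.5 times the reported count and 38 did not, and the cause was not tested. A fit of only the libraries compared, with fewer residual degrees of freedom, called 0 genes in WT at 20 min and 0 at 30 min against 0 min, 4 in the array strain at 20 min against 0 min, 3 at 60 min against 20 min, 13 at 30 min against 0 min and 16 for any difference. The same fit called 9, 17 and 4 genes between strains at 20, 30 and 60 min. DESeq2 called 1 gene in WT at 20 min against 5 min, 1 for any difference in the array strain and 2 there at 30 min against 0 min, and voom called 1 for any difference in the array strain. Library totals without TMM left 1 gene between strains at 30 min, and they moved the median of all tested genes between strains by -0.23 at 0 min, -0.14 at 20 min and -0.12 at 60 min, and by 0.14 in the array strain at 30 min against 0 min. With each library left out in turn, the counts ran from 2 to 22 for WT at 20 min against 0 min, 9 to 17 for 60 min against 20 min, 0 to 6 for 60 min against 0 min, 6 to 23 for 30 min against 0 min and 10 to 24 for any difference. They ran from 0 to 6 between strains at 0 min, 1 to 2 at 30 min and 0 to 1 for the array strain at 30 min against 0 min.

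With the replicate number as a block, 23 genes were called in WT at 20 min against 0 min and 26 from 20 to 60 min. The share of all tested genes called with the block is not given for these comparisons. The higher counts are therefore not read as a result about the assembly genes. The block called 1 gene between strains at 0 min, 12 at 30 min, 1 for any difference in the array strain and 3 there at 30 min against 0 min, and it moved no other count by over 1.5 times.

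Over all 35 genes and every comparison with a direction, the sign turned with at least 1 library left out in 128 of 560 changes, none of them called. For the genes named by rule it turned in 16 single values, 15 of them with a library left out. In WT at 20 min against 5 min such fits ran from -0.10 to 0.16 for UTP22 and from -0.32 to 0.45 for NOP1. In the array strain at 20 min against 0 min they ran from -0.34 to 0.015 for MPP10, -0.19 to 0.099 for NOP1, -0.23 to 0.12 for NOP56 and -0.38 to 0.0064 for UTP22. At 60 min against 20 min they ran from -0.21 to 0.13 for NOP56, which was 0.017 on library totals without TMM, from -0.27 to 0.11 for UTP22 and from -0.048 to 0.24 for NOP1. For UTP22 they ran from -0.23 to 0.16 between strains at 20 min and from -0.10 to 0.28 for the interaction at 60 min against 20 min. With 2 libraries in most groups and 3665 to 10353 reads on the set per library, thinly counted genes such as IMP3, DBP8 and UTP15 limit what can be read for them.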

Other observations

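Some values stand outside the comparisons above. The lowest group mean in WT fell at 10 min for 5 genes, UTP5, UTP6, UTP9, UTP21 and IMP4, and at 15 min for UTP13 and UTP14, earlier than for most of the set. In UTP5, UTP6, UTP9, UTP14 and UTP21 the libraries at that time overlapped with those at 20 min. In IMP4 and UTP13 they did not. A difference in timing was not tested. In the array strain the mean of 8 genes was highest at 45 min and of 9 at 60 min, whereas BMS1 and DIP2 were highest at 30 min. Of the 20 genes called lower in WT at 20 min against 0 min, all 20 had the PAC core in the promoter window and 18 the RRPE core. Of the 15 tested genes that were not called, 13 had the PAC core and 12 the RRPE core, so the windows differed little between these sets. NOP1 had both cores.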
